A study of Homo sapiens with 6 samples.

Results

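The genes described here are SREBF1 and 6 genes of fatty acid synthesis and handling, FASN, SCD, FADS1, ACSL1, LPIN1 and AACS, 7 of the 14884 genes with a named probe. They were picked by symbol in the annotation of the arrays' probes, with the probe of highest mean level taken for each gene, and their values with and without FAC were already known when they were picked. All 7 had a named probe. Gene expression was measured on 6 arrays in ARPE-19, an established human cell line derived from the retinal pigment epithelium, the layer that supports the photoreceptors. The cultures had reached confluence and had then spent 4 weeks at 1% serum to differentiate. The 3 FAC cultures received 250 µM FAC for 2 days (the labels do not spell the name out; FAC usually stands for ferric ammonium citrate), and the 3 untreated cultures received vehicle for the same time, both in medium without serum. The 2 groups share the line, the low serum and the serum-free medium. The comparison asks which genes respond to FAC in these cells. The labels call the replicates biological and do not say what separated them.

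SREBP1, the product of SREBF1, is a transcription factor that is made as a precursor in the endoplasmic reticulum membrane. The escort protein SCAP carries the precursor to the Golgi, where 2 proteases release the active part, and INSIG proteins hold SCAP back when sterols are plentiful. SREBP1 is known mainly for driving fatty acid and triglyceride synthesis, and its relative SREBP2 mainly for driving cholesterol synthesis and uptake, though their targets overlap. In the retina the pigment epithelium is known for taking up photoreceptor outer segments, which are rich in long polyunsaturated fatty acids.

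The letters before the start sites are shown because SREBP1 and SREBP2 are known to bind sterol regulatory elements there, often beside a CCAAT box. Windows of 250 bases upstream of annotated starts were read from RefSeq (GRCh38.p14) for 6 of the 7 genes, all but FASN, with 12 windows in all because ACSL1 has 5 and LPIN1 has 3. The motifs searched on both strands were the core of the sterol element (CACNCCAC), a long form in which the letters AT stand directly before that core, the palindromic E-box CACGTG and the CCAAT box (CCAAT). Capitals mark matches on either strand, so a motif on the opposite strand appears as its reverse complement (ATTGG for the CCAAT box). The window of SREBF1 (chr17:17836987-17837236, minus strand) held none of the 4 motifs, that of SCD (chr10:100346983-100347232, plus strand) held 1 core and 2 CCAAT boxes, and 1 of the ACSL1 windows (chr4:184805554-184805803, minus strand) held 2 cores and 1 CCAAT box. For SREBF1 only 1 start was read, so motifs before any other start of the gene would be missed.
SREBF1: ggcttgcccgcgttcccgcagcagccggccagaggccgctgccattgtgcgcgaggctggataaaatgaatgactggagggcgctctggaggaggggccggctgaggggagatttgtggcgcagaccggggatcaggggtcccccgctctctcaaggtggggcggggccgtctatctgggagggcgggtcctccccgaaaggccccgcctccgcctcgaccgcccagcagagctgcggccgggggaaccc
SCD: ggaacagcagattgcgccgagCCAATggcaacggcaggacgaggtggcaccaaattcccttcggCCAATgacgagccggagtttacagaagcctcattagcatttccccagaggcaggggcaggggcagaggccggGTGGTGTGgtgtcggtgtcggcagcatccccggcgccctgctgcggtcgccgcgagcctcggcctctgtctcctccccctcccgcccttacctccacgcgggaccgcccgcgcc
ACSL1: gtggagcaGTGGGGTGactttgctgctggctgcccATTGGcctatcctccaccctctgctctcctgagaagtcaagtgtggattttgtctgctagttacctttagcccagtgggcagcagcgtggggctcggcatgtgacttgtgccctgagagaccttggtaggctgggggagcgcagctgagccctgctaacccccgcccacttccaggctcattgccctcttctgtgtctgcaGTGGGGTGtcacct
For comparison, the window of SREBF2, the gene of SREBP2 (chr22:41832855-41833104, plus strand), held the long form beside a CCAAT box, and that of INSIG1 (chr7:155297628-155297877, plus strand) held a core, a CCAAT box and the E-box.
SREBF2: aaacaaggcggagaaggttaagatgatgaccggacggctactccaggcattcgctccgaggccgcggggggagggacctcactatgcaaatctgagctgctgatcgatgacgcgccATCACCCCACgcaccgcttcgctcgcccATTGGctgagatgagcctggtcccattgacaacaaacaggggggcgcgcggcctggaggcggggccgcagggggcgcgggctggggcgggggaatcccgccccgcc
INSIG1: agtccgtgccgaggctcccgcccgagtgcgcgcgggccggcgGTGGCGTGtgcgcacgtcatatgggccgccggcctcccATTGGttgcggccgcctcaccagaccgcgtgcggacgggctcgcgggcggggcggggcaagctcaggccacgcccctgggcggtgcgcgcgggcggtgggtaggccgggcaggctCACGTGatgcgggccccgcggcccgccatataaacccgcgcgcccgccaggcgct
None of the 12 windows held the long form, which is in 0.125% of all 35116 windows of this length, and none held the E-box, which is in 6.34%. The core was in 2 of the 12, against 4.87% of all windows, and the CCAAT box in 2 of the 12, against 32%. A match describes the letters only, and the arrays measured no binding.

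The 6 arrays had median log2 intensities between 6.031 and 6.088, and Pearson's r of any pair of arrays lay between 0.9913 and 0.9954 across probes. Levels are log2 intensities as deposited, differences are FAC minus untreated with the SE of the fit, and levels of different genes are not set against each other because probes differ in brightness. No detection calls came with the values. Of 21 listed markers of retinal pigment epithelium 18 were measured. Their summed level lay between 142.2 and 143.1 on FAC arrays and between 141.1 and 143.6 on untreated arrays. None of the 18 had a limma adjusted p under 0.05, and 3 had an unadjusted p under 0.05, against 17.2% of all genes. Of these 3, RLBP1 (0.31) and RGR (0.32) were higher with FAC and MITF (-0.15) was lower, which a sum can hide. OTX2, a transcription factor of this epithelium, lay between 10.97 and 11.21 on all arrays, while RPE65, the visual cycle isomerase, lay between 5.51 and 5.79, among the dimmest 33.3% of genes. Of the 5 measured adipocyte markers of 7 listed, 4 lay among the dimmest 33.3%, and their summed level was 27.64 to 28.55 with FAC and 27.79 to 28.30 without. The 4 measured fibroblast and mesenchymal markers summed to 33.22 to 33.41 with FAC and 34.18 to 34.50 untreated. Of these LUM was lower (-0.56, limma adjusted p = 0.0104), and DCN (-0.38, adjusted p = 0.0539) did not pass. VIM (0.001) and THY1 (-0.03) differed little. The 4 macrophage and blood markers summed to 29.28 to 29.49 with FAC and 29.70 to 29.75 untreated, with CSF1R lower (-0.37, adjusted p = 0.0365). CD68 (-0.12), CD14 (0.04) and CD163 (0.07) did not pass. In each list 1 of 4 passed, against 3.73% of all genes, and the markers did not all fall. LUM and CSF1R were singled out after their values were seen, and the part of these markers in the results for lipid genes was not tested. None of the 4 endothelial or 6 neuron, glia and photoreceptor markers passed, against 3.73% of all genes. In the same fit 2 of the 4 and 3 of the 6 had an unadjusted p under 0.05, against 17.2% of all genes. Of these CLDN5, SAG and GFAP were higher with FAC, and KDR and SYT1 were lower. Untreated replicate 2 stood apart in the pigment gene TYRP1, at 9.48 against 10.45 and 10.28 on the other untreated arrays. Without that array the difference of each of the 7 genes moved by less than 1 SD between replicates.

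Of the 7 genes, 6 had all 3 FAC values above all 3 untreated values, and AACS did not. The 6 differences ran from 0.28 to 0.51, which is 1.22-fold to 1.43-fold. Such a separation, with FAC above, occurred in 10.4% of all genes. In the fit over all genes 5 of the 7 passed the threshold of an adjusted p under 0.05, all higher with FAC, and SCD and AACS did not. Of all genes 3.73% passed, 1.88% higher and 1.85% lower with FAC. Because the choice rested on this comparison, nothing is read from these counts, and no test is given for the 7 genes. The arrays measure RNA of whole cultures, so a change in the number of expressing cells and a change in RNA per cell cannot be told apart.

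**Figure D1:**
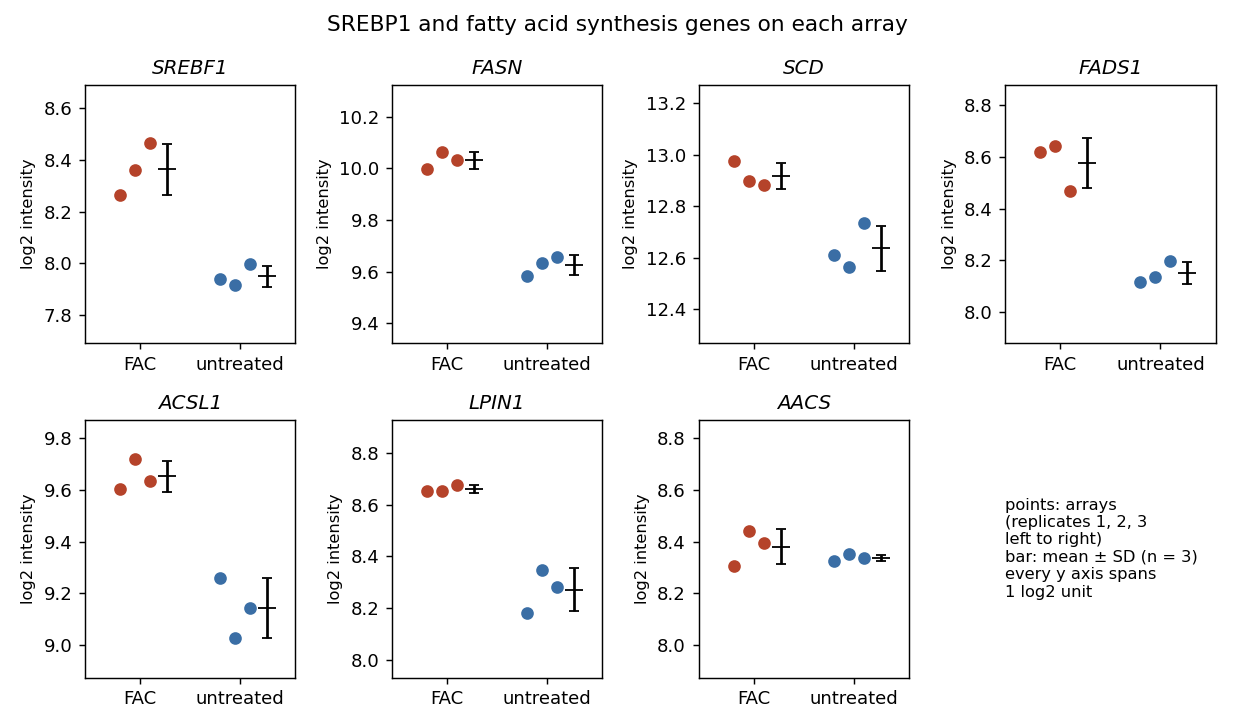
Log2 intensity (y axis, 1 log2 unit in every panel) of the 7 genes on the 3 FAC arrays (left, red) and the 3 untreated arrays (right, blue), with the mean and SD of each group. The groups are separate for SREBF1, FASN, SCD, FADS1, ACSL1 and LPIN1, and for AACS the untreated values lie within the range of the FAC values.

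SREBF1, on chromosome 17, measured 8.26, 8.36 and 8.46 on the FAC arrays, against 7.94, 7.92 and 7.995 on the untreated arrays. The lowest FAC value stood 0.27 above the highest untreated value, and the FAC replicates spread more (SD 0.10) than the untreated ones (SD 0.04). The means were 8.36 ± 0.10 with FAC and 7.95 ± 0.04 without (SD, n = 3 each), a difference of 0.41 ± 0.07 (SE) or 1.33-fold. The deposited values give 1 level for the gene and do not separate its SREBP1a and SREBP1c transcripts. The gene RAI1, which overlaps SREBF1 in the reference, had a difference of -0.01 ± 0.06 (limma adjusted p = 0.970).

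An intron of SREBF1 holds the microRNA gene MIR33B, and one of SREBF2 holds MIR33A. Their mature products are shown because both are known to repress genes of cholesterol export and fatty acid oxidation and share the seed, bases 2 to 8, in capitals (RefSeq, GRCh38.p14).
hsa-miR-33b-5p: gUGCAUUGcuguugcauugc
hsa-miR-33a-5p: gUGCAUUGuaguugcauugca
The first lies at chr17:17813897-17813916 on the minus strand and the second at chr22:41900949-41900969 on the plus strand. The MIR33B probe measured 6.95, 7.04 and 7.07 with FAC, against 6.91, 6.99 and 7.18 untreated, so its groups overlapped while those of its host gene did not. The difference for MIR33B was -0.01 ± 0.08 (adjusted p = 0.976) and that for MIR33A, at a level of only 3.77 with FAC and 3.81 untreated, was -0.04 ± 0.07 (adjusted p = 0.787). These microRNA genes were taken for their position and not by the rule for naming genes, and whether their probes read precursor or mature RNA is not given in the sources used here.

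FASN encodes fatty acid synthase, the multidomain enzyme that builds palmitate from acetyl-CoA and malonyl-CoA. It measured 9.999, 10.06 and 10.03 with FAC, against 9.58, 9.64 and 9.66 untreated. The groups were 0.34 apart, and the SDs were 0.03 with FAC and 0.04 untreated. Its difference was 0.41 ± 0.05, or 1.33-fold.

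SCD encodes stearoyl-CoA desaturase, which puts the first double bond into palmitoyl-CoA and stearoyl-CoA. It measured 12.98, 12.90 and 12.88 with FAC, against 12.61, 12.56 and 12.73 untreated, a difference of 0.28 ± 0.06 or 1.22-fold. This probe lay at percentile 99.8 of all genes by mean level, near the top of the range. A second, dimmer SCD probe measured 7.18, 7.34 and 7.29 with FAC, against 6.85, 6.94 and 6.85 untreated, with a difference of 0.39 ± 0.07. The groups were separate on both probes, and SCD was the 1 gene of the 7 with more than 1 named probe.

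FADS1 encodes the delta-5 desaturase of polyunsaturated fatty acid synthesis. It measured 8.62, 8.64 and 8.47 with FAC, against 8.12, 8.14 and 8.20 untreated, so FAC replicate 3 was its lowest FAC value although it was the highest for SREBF1. The difference was 0.43 ± 0.06, or 1.35-fold. FADS1 overlaps FADS2, the delta-6 desaturase gene, at the reference locus on chromosome 11.

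ACSL1, a long-chain acyl-CoA synthetase that activates fatty acids for synthesis or oxidation, had the largest difference of the 7. It measured 9.60, 9.72 and 9.63 with FAC, against 9.26, 9.02 and 9.14 untreated, a difference of 0.51 ± 0.07 or 1.43-fold. It also had the widest untreated spread of the 7 (SD 0.12), and its difference was 0.45 without untreated replicate 2, the lowest of these arrays.

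LPIN1 encodes lipin 1, a phosphatidate phosphatase that makes the diacylglycerol used for triglycerides and phospholipids. It measured 8.65, 8.65 and 8.68 with FAC, against 8.18, 8.35 and 8.28 untreated. The FAC values were close together (SD 0.01, against 0.08 untreated), and the difference was 0.39 ± 0.06 or 1.31-fold.

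AACS encodes acetoacetyl-CoA synthetase, which turns the ketone body acetoacetate into a substrate for lipid synthesis. It measured 8.31, 8.44 and 8.39 with FAC, against 8.32, 8.35 and 8.34 untreated. The groups overlapped, and the difference was 0.04 ± 0.06. The SE leaves room for a small difference in either direction.

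By size the differences ran ACSL1, FADS1, SREBF1, FASN, LPIN1, SCD, AACS. From ACSL1 to LPIN1 each neighbouring pair differed by less than its combined SE, the widest such gap being 0.08 between ACSL1 and FADS1 against a combined SE of 0.10. LPIN1 exceeded SCD by 0.11 (combined SE 0.09), and SCD exceeded AACS by 0.24 (combined SE 0.08). The second SCD probe would place SCD beside LPIN1. Averaged over the 7 genes after centring each on its mean, the FAC arrays lay at 0.15, 0.20 and 0.17 and the untreated arrays at -0.19, -0.20 and -0.14. Within a group no array led throughout: the highest FAC value was on FAC replicate 2 for 4 genes, on replicate 3 for 2 genes and on replicate 1 for 1 gene.

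The 5 genes whose centred values came closest to those of SREBF1 over the 6 arrays, by root mean square difference among 7160 genes of at least median level, were SYNPO (0.04), HSD17B2 (0.05), MYO1D (0.05), GPR162 (0.05) and USP54 (0.05). SYNPO encodes the actin-associated protein synaptopodin, HSD17B2 a steroid dehydrogenase, MYO1D an unconventional myosin and USP54 a member of the ubiquitin-specific protease family. FASN ranked 6 by this measure (0.06), LPIN1 ranked 26, ACSL1 83, FADS1 120, SCD 136 and AACS 1343. The 6 points share the 2 groups and the arrays, so this is a description with no test.

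**Figure D2:**
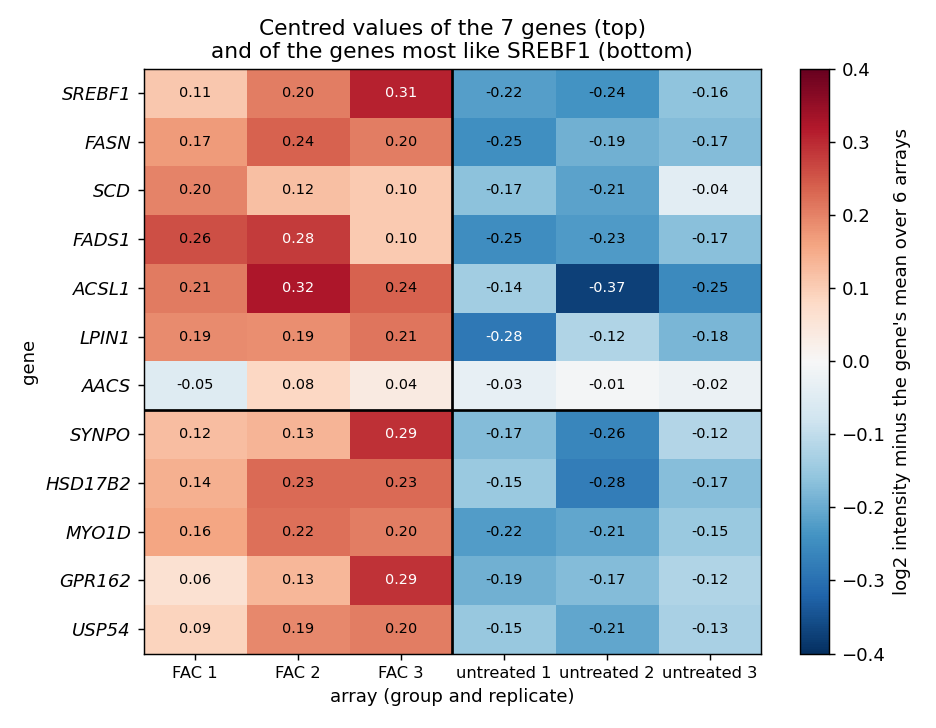
Log2 intensity minus the gene's mean over the 6 arrays (colour and number) for the 7 genes above the line and, below it, the 5 genes closest to SREBF1, with FAC arrays left of untreated arrays. Of the 7 genes, AACS lies closest to its mean, at -0.05 to 0.08, and FAC replicate 3 is high for SREBF1 (0.31) and low for FADS1 (0.10).

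The close relatives of these genes were named whatever their values, and of the 10 with a probe 1 passed the test, against 3.73% of all genes. FADS3, a neighbour of FADS1 in the same gene cluster, rose with FAC, at 9.62, 9.56 and 9.54, against 9.27, 9.09 and 9.24 untreated (0.37 ± 0.06, limma adjusted p = 0.0236). FADS2 measured 8.56, 8.61 and 8.49 with FAC, against 8.12, 8.35 and 8.27 untreated (0.31 ± 0.07, adjusted p = 0.0656). All 3 FAC values of both genes lay above their untreated values, as for FADS1 and for 10.4% of all genes. SREBF2 measured 9.65, 9.77 and 9.77 with FAC, against 9.44, 9.54 and 9.48 untreated, a difference of 0.24 ± 0.06 that did not pass (adjusted p = 0.0694), beside 0.41 ± 0.07 for SREBF1. ACSS2, which makes acetyl-CoA from acetate, had a difference of 0.20 ± 0.05 (adjusted p = 0.0801) with separate groups, beside 0.04 ± 0.06 for AACS.

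The relatives of ACSL1 and LPIN1 had small differences. ACSL4, which prefers arachidonate, had a difference of -0.13 ± 0.06 (adjusted p = 0.326), ACSL5 one of 0.09 ± 0.06 (adjusted p = 0.509) and ACSL6, a dim gene, one of 0.05 ± 0.07 (adjusted p = 0.780), beside 0.51 ± 0.07 for ACSL1. LPIN2 measured 9.002, 9.09 and 8.93 with FAC, against 9.005, 8.92 and 9.12 untreated. Its difference was -0.01 ± 0.07 (adjusted p = 0.961) and that of LPIN3 -0.01 ± 0.06 (adjusted p = 0.943), beside 0.39 ± 0.06 for LPIN1. SCD5, the second stearoyl-CoA desaturase gene, had a difference of 0.10 ± 0.06 (adjusted p = 0.436). Differences between relatives were not tested, because 1 of each pair was chosen on this comparison. The call of FADS3 was lost without FAC replicate 1 (adjusted p = 0.106), FAC replicate 2 (0.0695), FAC replicate 3 (0.0662) or untreated replicate 3 (0.0723). The elongase gene ELOVL6 passed without untreated replicate 2 (0.0451).

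**Figure D3:**
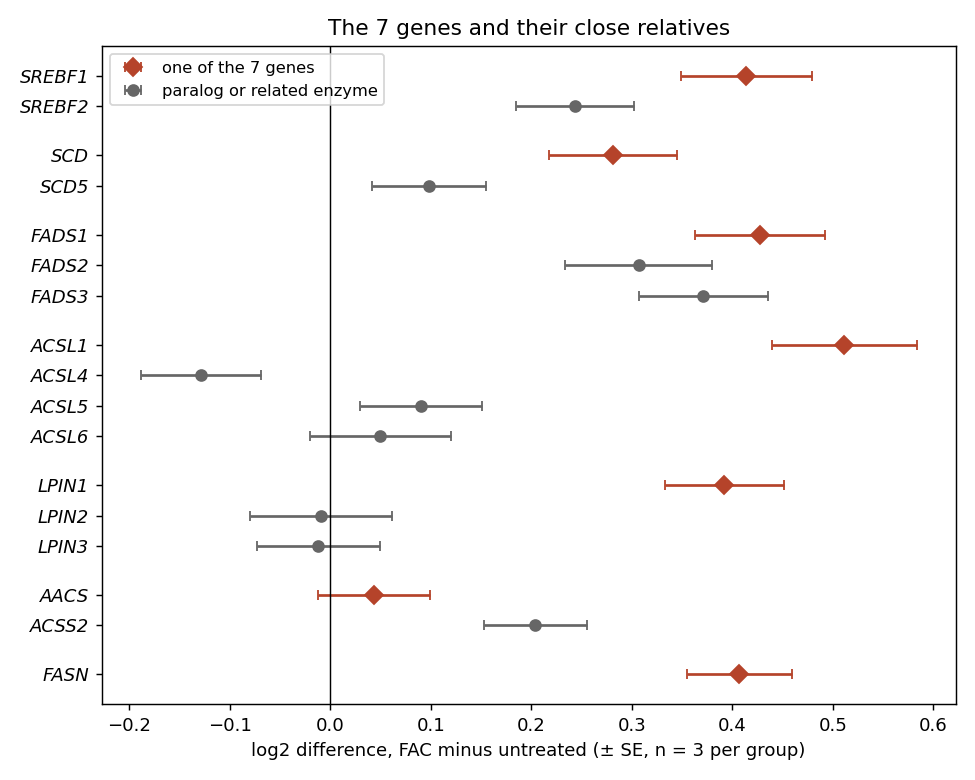
Log2 difference, FAC minus untreated (x axis, ± SE, n = 3 per group), of the 7 genes (red diamonds) and of their close relatives (grey circles), grouped by family. ACSL1 (0.51) and LPIN1 (0.39) lie apart from their measured relatives (-0.13 to 0.09 and -0.01), while FADS2 (0.31) and FADS3 (0.37) lie near FADS1 (0.43). The 7 genes were picked with these differences known, so these contrasts were not tested.

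Beyond the 7 genes, 8 lists of lipid synthesis and use held 172 genes, of which 101 were measured, counting each once. Of these 3 rose and 2 fell with FAC, together 4.95% against 3.73% of all genes (1.88% higher and 1.85% lower), and the median difference was 0.01 against 0.00 over all genes. An unadjusted p under 0.05 was reached by 25 of the 101 (24.8%; 17 higher and 8 lower), against 17.2% of all genes, and 54.5% had a positive difference, against 48.5% of all genes. INSIG1 and INSIG2, which retain SCAP, moved in opposite directions, and FADS3, PNPLA3 and HILPDA were the other 3. INSIG1 measured 10.86, 10.81 and 10.74 with FAC, against 10.06, 10.07 and 10.01 untreated (0.75 ± 0.06, 1.69-fold, limma adjusted p = 0.00115). INSIG2 fell, at 8.73, 8.75 and 8.71 with FAC, against 8.98, 8.92 and 9.03 untreated (-0.25 ± 0.05, adjusted p = 0.0482). SCAP had a difference of -0.08 ± 0.05 (adjusted p = 0.527). The 5 calls became 2 (1.98%), INSIG1 and HILPDA, without FAC replicate 1 or FAC replicate 2, where 0.988% and 1.36% of all genes passed. They became 3 (2.97%) without FAC replicate 3, untreated replicate 1 or untreated replicate 3, where 1.44%, 1.68% and 1.01% passed. INSIG2 was lost without any 1 of the 6 arrays (adjusted p between 0.061 and 0.163), and quantile normalization gave 7 higher and 1 lower, and centring on medians 3 higher and 1 lower.

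Of the 9 measured genes of citrate export and of acetyl-CoA, malonyl-CoA and NADPH supply other than AACS, none passed by limma. A positive difference was measured for 8 of them (88.9%, against 48.5% of all genes), and 5 had an unadjusted p under 0.05 (55.6%, against 17.2% of all genes; 4 higher and 1 lower). The median of these 9 was 0.14. ACLY, which makes cytosolic acetyl-CoA from citrate, measured 11.25, 11.26 and 11.25 with FAC, against 11.01, 11.06 and 11.18 untreated (0.17 ± 0.06, adjusted p = 0.188). ACACA, the main acetyl-CoA carboxylase of fatty acid synthesis, had a difference of 0.14 ± 0.06 (adjusted p = 0.246), and ACACB, the mitochondrial form, one of 0.06 ± 0.05 (adjusted p = 0.620). MID1IP1, which promotes polymerisation of acetyl-CoA carboxylase, had the smallest p of this list with 0.23 ± 0.05 (adjusted p = 0.0581), but a second, dimmer probe gave -0.06 ± 0.08.

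Of 16 other measured genes of fatty acid synthase, desaturation and elongation, FADS3 rose and none fell (6.25% called, against 3.73% of all genes). Their median was 0.07. An unadjusted p under 0.05 was reached by 6 of the 16 (37.5%, against 17.2% of all genes), all higher with FAC. ELOVL6, which elongates palmitate, measured 8.83, 8.68 and 8.71 with FAC, against 8.40, 8.55 and 8.29 untreated (0.33 ± 0.08, adjusted p = 0.0711). Its groups were separate, with 0.13 between them, but the fit did not call it.

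Of 15 other measured genes of fatty acid activation, uptake and binding, none passed, 1 had an unadjusted p under 0.05 (6.67%, against 17.2% of all genes), and the median was 0.05. ACOT9, an acyl-CoA thioesterase gene, had the smallest p of that list (0.16 ± 0.05, adjusted p = 0.151). Of 22 other measured genes of glycerolipid synthesis, none passed, and the median was -0.02. Among the 22, 3 had an unadjusted p under 0.05 (13.6%, against 17.2% of all genes), 1 higher and 2 lower. LPCAT1, a lysophosphatidylcholine acyltransferase gene, had the smallest p there (-0.22 ± 0.06, adjusted p = 0.0823). DGAT1 and DGAT2, which complete triglycerides, had differences of -0.01 ± 0.05 (adjusted p = 0.939) and -0.03 ± 0.06 (adjusted p = 0.864), beside 0.39 ± 0.06 for LPIN1.

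Of 16 measured genes of lipid droplets and lipolysis, 1 rose and 1 fell (12.5%, against 3.73% of all genes), with a median of -0.01. An unadjusted p under 0.05 was reached by 2 of the 16 (12.5%, against 17.2% of all genes). PNPLA3, a lipid droplet protein and known SREBP1 target in liver, measured 10.04, 10.06 and 10.02 with FAC, against 9.68, 9.65 and 9.74 untreated (0.35 ± 0.05, 1.28-fold, adjusted p = 0.0138). HILPDA, a hypoxia-induced lipid droplet protein that restrains lipolysis, fell to 7.79, 7.80 and 7.91 with FAC, against 8.30, 8.26 and 8.36 untreated (-0.47 ± 0.06, adjusted p = 0.00754). The call of PNPLA3 was lost without FAC replicate 1 (adjusted p = 0.0676), FAC replicate 2 (0.0563) or untreated replicate 1 (0.0506), and that of HILPDA held without any 1 of the 6 arrays.

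Of 13 measured genes of fatty acid oxidation, none passed, 4 had an unadjusted p under 0.05 (30.8%, against 17.2% of all genes; 1 higher and 3 lower), and the median was -0.02. PPARA, a nuclear receptor that drives this pathway, had the smallest p (-0.23 ± 0.07, adjusted p = 0.122). Of 4 measured targets of the liver X receptors, which sense oxysterols and are known to induce SREBF1, none passed, and the median was 0.08. Among the 4, 2 had an unadjusted p under 0.05 (50%, against 17.2% of all genes), each higher with FAC. LPCAT3, a phospholipid acyltransferase gene of that list, had the smallest p (0.18 ± 0.06, adjusted p = 0.161).

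Genes of sterol synthesis and uptake, known mainly as SREBP2 targets, were set beside these lists. Of 15 measured, 8 rose and none fell, 53.3% against 3.73% of all genes, with a median of 0.33. An unadjusted p under 0.05 was reached by 12 of the 15 (80%, against 17.2% of all genes), all higher with FAC. A positive difference was measured for 86.7%, against 48.5% of all genes. HMGCS1 (0.61 ± 0.09, adjusted p = 0.0118), ACAT2 (0.44 ± 0.06, adjusted p = 0.01), IDI1 (0.38 ± 0.05, adjusted p = 0.00929) and DHCR7 (0.37 ± 0.07, adjusted p = 0.0252) had the largest rises. The count of 8 was 0 without FAC replicate 1, where 0.988% of all genes passed. It was 3 without FAC replicate 2 (20%, against 1.36% of all genes) or untreated replicate 1 (20%, against 1.68%). Without FAC replicate 3 it was 4 (26.7%, against 1.44%), and without untreated replicate 3 it was 1 (6.67%, against 1.01%). Without untreated replicate 2 it was 6 (40%, against 3%).

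**Figure D4:**
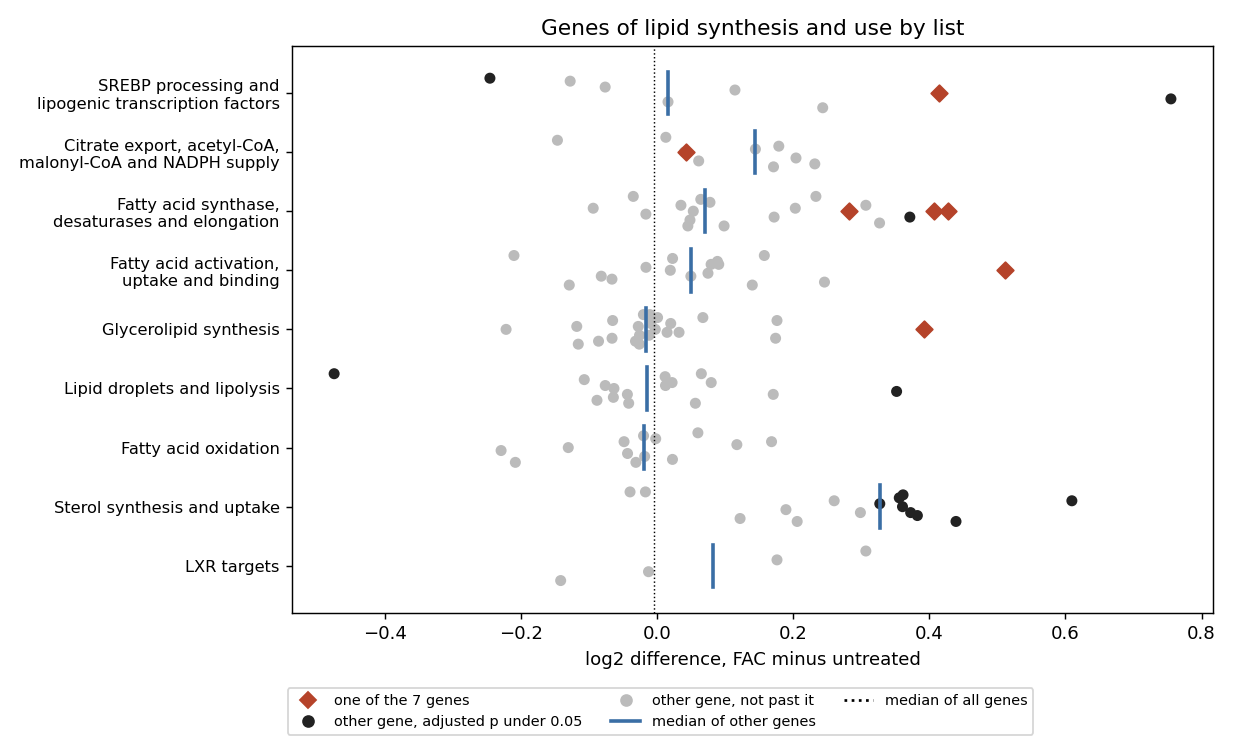
Log2 difference, FAC minus untreated (x axis), of every measured gene of the 9 lists (rows), with the 7 genes as red diamonds, other genes as circles (black where the adjusted p was under 0.05), the median of the other genes of a list as a blue line and the median of all genes dotted. SREBF1, FASN, SCD, FADS1, ACSL1 and LPIN1 lie at 0.28 or above, and AACS lies at 0.04. Most other genes outside the sterol list lie below 0.28. Because the 7 genes were picked with their differences known, nothing is read from this contrast.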

How the data were processed

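RNA from 6 ARPE-19 cultures was put on 6 arrays after amplification and biotin labelling, according to the labels. The deposited table has 53617 probes and 6 columns of log2 intensity. The submitters' processing notes list RMA and Partek 6.6, with no word on what each did. Values between 2.414 and 14.22 are those of a log2 scale. Depth in the sense of read counts does not apply, and the number of arrays limits precision.

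The platform annotation gives 16098 probes 1 symbol each, covering 14884 genes, of which 779 have more than 1 probe. FAC minus untreated was fitted over these genes with limma 3.58.1 in R 4.3.3 (lmFit, eBayes, 2-sided, Benjamini-Hochberg over all genes, threshold 0.05), with no renormalisation. The median SE was 0.07, and SEs of second probes come from a fit of all 53617 probes, named or not. On simulated data of 14884 genes with 200 changed, 20 runs of this comparison recovered 78% of changes of 0.5, with 4.68% false calls. Changes smaller than 0.5 were not simulated, so the share recovered at such sizes is not known.

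The 7 genes, the lists and the rule for naming were chosen with earlier results of these data known. The rule names the 7 genes, their close relatives, upstream enzymes, SCAP and the INSIG genes, up to 4 called genes per list (or the 1 with the smallest p), and the 5 genes most like SREBF1. Of the relatives and enzymes, ACSL3, GPAM and ME1 have no named probe and were not analysed here. Alternatives were the dimmest 33.3% of genes left out, quantile normalization, median centring, a trended robust prior, array weights, averaged probes, all 53617 probes tested, a replicate block and each array left out.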

Additional observations from a re-analysis of the deposited data

How the results depend on the processing

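Under the 14 alternatives the differences of the 7 genes moved by less than 1 SD between replicates. They lay between 0.45 and 0.57 for ACSL1, 0.36 and 0.46 for SREBF1, 0.39 and 0.43 for FASN, 0.39 and 0.48 for FADS1, 0.35 and 0.43 for LPIN1, 0.25 and 0.34 for SCD, and 0.01 and 0.08 for AACS. Leaving out dim genes, the trended prior, testing every probe and the replicate block cannot change these differences. Averaging probes can change only that of SCD. The number of called genes depended on the setting. The count over all genes, 555, became 840 without the dimmest 33.3% and 1026 with a trended robust prior. It became 111 when every probe, named or not, was tested, and lay between 147 and 447 without 1 array. The 5 calls among the 101 other lipid genes became 12 of the 80 left without the dimmest genes (15%, against 8.47% of all genes in that setting). They became 16 with the trended prior (15.8%, against 6.89%) and 8 with quantile normalization (7.92%, against 3.95%). With array weights they became 8 (7.92%, against 4.21%), and when every probe was tested 2 (1.98%, against 0.746%). Without 1 array they lay between 2 and 5 (1.98% to 4.95%, against 0.988% to 3% of all genes). Same-numbered arrays did not deviate together (correlations over genes of -0.02, -0.03 and -0.15). With the replicate number as a block the counts were 184 (1.24% of all genes) and 2 (1.98% of the other lipid genes). INSIG1 and HILPDA passed under all 14 alternatives. SREBF2 passed in 3 of 14, FADS2 and MID1IP1 in 4, ELOVL6 in 3, ACSS2 and LPCAT1 in 2, and ACLY, ACOT9 and LPCAT3 in 1 each. The sterol list went to 0 when every probe was tested (0.746% of all genes passed) and to 2 with the replicate block (13.3%, against 1.24%). It went to 10 without the dimmest genes (66.7%, against 8.47%) and to 11 with the trended prior (73.3%, against 6.89%). With quantile normalization (60%, against 3.95%) and with array weights (60%, against 4.21%) the sterol count was 9. Apart from fewer genes, more probes or fewer arrays entering a fit, the cause of these changes was not tested. Without detection calls, a change in a dim gene could be missed.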
